A study of Mus musculus with 9 samples.

Results

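The 42 genes described here encode proteins that build, check and drive mitosis. Kinesin genes were set aside, except Cenpe, whose protein is also a kinesin-type motor. They were taken by symbol from a deposited table of 21210 genes. All 42 were found, 1 row each, and all 42 passed the filter on low values with 15828 genes in all. Their levels were followed through 3 sorted cell populations of the embryonic mouse cortex. The lateral cortex of C57BL/6 embryos was taken at embryonic day 14.5, and every animal is labelled with the genotype Btg2GFP/Tubb3GFP, so all groups carry both reporters. Proliferating progenitors were the cells negative for the Btg2 reporter, which the titles call RFP, the red channel. Differentiating progenitors were the cells positive for it, and neurons were the cells positive for GFP from Tubb3, which encodes a tubulin typical of neurons. Btg2 is an antiproliferative gene switched on in progenitors that are about to make neurons. Each group has 3 libraries of poly-A RNA, each made from a pool of cells of several embryos of different litters. The groups are gates on 2 reporters, not single cell types, and the labels do not say which embryos went into which pool, so p-values measure the spread between these libraries.

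Mitosis turns replicated chromosomes into sets for both daughter cells. Condensins and topoisomerase II compact the chromosomes, kinetochores built on centromeres attach them to spindle microtubules, and the spindle checkpoint holds back the anaphase-promoting complex until every kinetochore is attached. Cyclin-dependent, Polo and Aurora kinases drive entry and error correction, and the midzone and contractile ring then divide the cell. Most of these genes are transcribed periodically, with a peak in G2 and mitosis, and are silenced in cells that have left the cycle. In the cortex, radial glia divide at the ventricle, intermediate progenitors divide farther out, and neurons do not divide.

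Normalised totals ran from 17531558 in replicate 1 of the proliferating progenitors to 22076409 in replicate 2 of the neurons, and raw read totals were not used here. Each reporter gene had its highest counts in its own gate, though Btg2 transcripts were also present in the negative one. Tubb3 had normalised read counts of 2511, 1557 and 1158 in proliferating progenitors, 10937, 13097 and 9711 in differentiating ones and 50230, 48666 and 39932 in neurons. Btg2 was at 8952, 7032 and 9336 in the group called negative, against 14022, 14635 and 19983 in the positive one. In neurons it was at 3299, 2645 and 3390. Pax6, a radial glia transcription factor, was at 9447 to 10770, 6176 to 6563 and 378 to 518 in the 3 groups in that order. The proliferating progenitor libraries also held red cell transcripts. The 11 red cell markers in the table summed to 259146, 103759 and 118057 there, against 229 to 2101 in differentiating ones and 200 to 285 in neurons, and none of them was at 0 in any whole group.

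All 42 mitosis genes fell from differentiating progenitors to neurons, most of them to a few percent of the progenitor level. The median log2 change was -4.63, with a range from -5.48 for Bub1 to -0.81 for Bub3. Each of the 42 was below every differentiating progenitor library in every neuron library, whereas among all genes tested 29.5% had this pattern. By limma with Benjamini-Hochberg adjustment all 42 were lower, against 26.4% of all genes that were lower, 27.6% that were higher and 54.0% that changed in either direction, and the median change over all genes was -0.01. Neurons against proliferating progenitors gave 41 of 42 lower, where 31.1% of all genes were lower, 32.2% higher and 63.3% changed, and a median of -4.44. In the same 41 every neuron library was below every proliferating one, as in 33.5% of all genes. The authors' deposited table also called 41 of 42 in each of these comparisons, where it called 44.9% and 54.7% of the genes tested here. In pools such as these, fewer cells that hold a transcript and less of it per cell cannot be told apart.

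**Figure D1:**
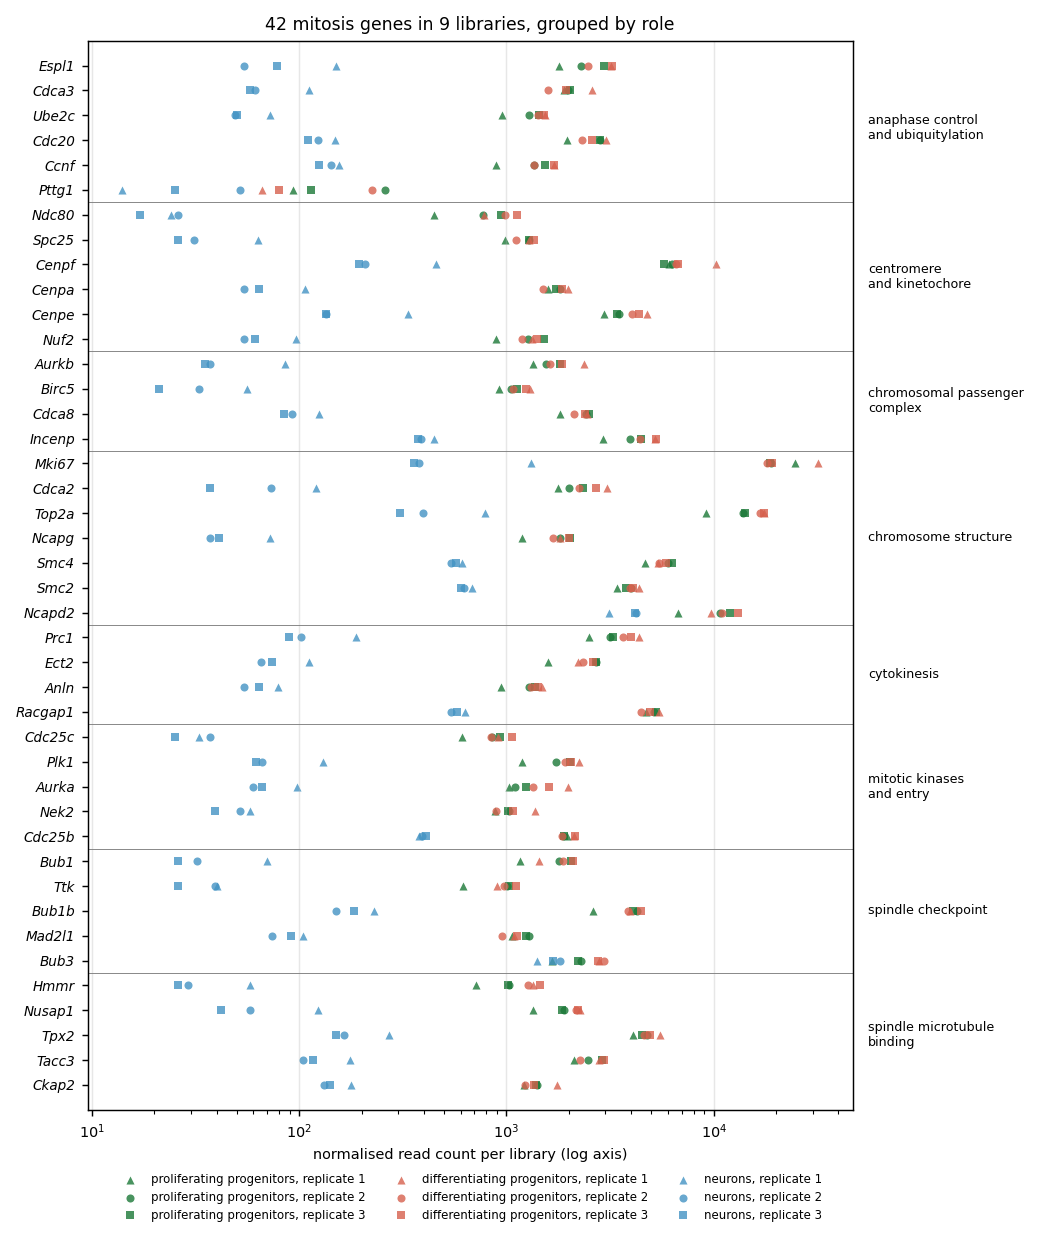
Normalised read counts (log axis) of the 42 mitosis genes in each of 9 libraries, one row per gene, grouped by role; colour marks the group and symbol shape the replicate. Neuron libraries lie far to the left of both progenitor groups in nearly every row, and Bub3, Ncapd2 and Pttg1 are the rows with the smallest gap.

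What was left in neurons was small but measured in every library, and no member was at 0 anywhere. Mean neuron levels were 2.56% to 79.4% of the mean in proliferating progenitors, with a median of 4.71%. In 23 of the 42 genes the neurons kept at most 5% and in 32 at most 10%. Apart from Bub3 and Ncapd2, the highest was 20.6%, for Cdc25b. Replicate 1 of the neurons stood above the other 2 in 36 of 42 genes, and its ratio to the mean of those 2 had a median of 1.57 over all 42. Its median level was 6.35% of the proliferating progenitor mean, against 4.08% and 3.75% in replicates 2 and 3. The median over 16 radial glia markers in the same 3 libraries was 3.1%, 3.0% and 2.65%, and over 43 genes of the G1/S transition and DNA replication it was 11.3%, 10.7% and 12.6%. Summed values of 13 intermediate progenitor markers were 31574, 22995 and 25494 in these libraries, highest in replicate 1. Those of the radial glia markers were 18047, 20482 and 17723. Those of 13 neuron markers were 227251, 203895 and 192224, also highest in replicate 1. By limma 6 of the 13 intermediate progenitor markers were higher in neurons than in proliferating progenitors and 5 were lower. Over all genes 32.2% were higher and 31.1% lower. A part of other cells in the residual level was not tested. Summed, the 42 genes made up 0.633%, 0.727% and 0.777% of the library total in the proliferating group and 0.887%, 0.702% and 0.797% in the differentiating group. In the neuron libraries they made up 0.0626%, 0.0531% and 0.0533%. Of the neuron sums of 13526, 11730 and 11420, Ncapd2 alone held 3138, 4194 and 4156.

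Genes of chromosome structure formed the group with the deepest median, -5.23 over 7 genes, and also held one of the shallowest members. Mki67, which encodes the chromosome surface protein Ki-67 used as a proliferation marker, had normalised counts of 24554, 18833 and 18749 in proliferating progenitors, 31857, 18175 and 19088 in differentiating ones and 1317, 377 and 357 in neurons. Its log2 change into neurons was -5.31 ± 0.46 (SE, limma adjusted p = 1.03e-05, n = 3 per group). Replicate 1 was the high library in each of the 3 groups, and without that neuron library the change was -5.92. Top2a, the topoisomerase that untangles sister chromatids, read 9211, 13909 and 14225, then 17394, 16780 and 17420, and 786, 396 and 305 in the same order of groups. All 3 differentiating libraries lay above the proliferating ones, and the log2 change into neurons was -5.23 ± 0.31 (limma adjusted p = 9.52e-07). Per kilobase of gene length, Mki67 at 1470 and Top2a at 1108 normalised counts per kilobase over all 9 libraries were among the 3 highest of the 42, whose median was 364. Cdca2, a chromatin-bound partner of protein phosphatase 1 in mitotic exit, was at 2036 ± 289, 2666 ± 402 and 76.7 ± 41.6 (SD, n = 3) in the 3 groups.

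The 4 condensin subunits among the members did not fall alike. Smc2 and Smc4 are the ATPase arms shared by condensin I and II, and Ncapg and Ncapd2 are HEAT-repeat subunits of condensin I. Ncapg had 1194, 1816 and 2020 normalised counts in proliferating progenitors, 1815, 1681 and 2009 in differentiating ones and 72, 37 and 41 in neurons, a log2 change of -5.23 ± 0.27. Smc4 changed by -3.28 ± 0.12 and Smc2 by -2.71 ± 0.09. Smc2 kept 680, 621 and 600 in neurons from 4383, 3965 and 4084 in differentiating progenitors. Ncapd2 changed least of these subunits, from 9740, 10952 and 13108 to 3138, 4194 and 4156, a log2 change of -1.56 ± 0.22 (limma adjusted p = 0.000259). Its proliferating libraries read 6742, 10756 and 12011, and with 1838 normalised counts per kilobase it was the most abundant of the 42 per length. The ratio of Ncapd2 to Ncapg, formed on value + 1 and chosen after the values were seen, was 5.64, 5.92 and 5.94 in proliferating progenitors and 5.36, 6.51 and 6.52 in differentiating ones. In neurons it was 43.0, 110 and 99.0, above all 6 progenitor values. The exact two-sided permutation p of neurons against differentiating progenitors was 0.1, the smallest that 3 against 3 can give, and 0.1 after adjustment over the 7 ratios formed.

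The condensin subunits outside the 42 split in a similar way. Ncaph, the kleisin of condensin I, fell by 4.01 and Ncapg2 of condensin II by 3.56 on the log2 scale into neurons. Ncapd3 and Ncaph2 of condensin II fell by 1.49 and 0.79, and all 4 passed the test, where 26.4% of all genes were lower. Of the proliferating progenitor mean, the condensin I subunit Ncapd2 kept 38.9% in neurons, where Ncapg kept 2.98% and Ncaph 6.33%. In condensin II, Ncapd3 kept 40.0% and Ncaph2 53.4%, where Ncapg2 kept 7.69%.

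The 5 spindle checkpoint genes held both ends of the range. Bub1, a kinase that recruits the checkpoint to kinetochores, had 1156, 1802 and 2043 normalised counts in proliferating progenitors, 1442, 1864 and 2084 in differentiating ones and 70, 32 and 26 in neurons. Its log2 change into neurons was -5.48 ± 0.36 (limma adjusted p = 1.65e-06), the deepest of the 42. Ttk, the kinase also named Mps1, changed by -4.81 ± 0.24, and Bub1b, which encodes BubR1 of the mitotic checkpoint complex, by -4.46 ± 0.21. Mad2l1, the Mad2 subunit that binds Cdc20, went from 1085, 947 and 1118 to 104, 74 and 91, a change of -3.54 ± 0.14. It was at 1061, 1279 and 1236 in proliferating progenitors.

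Bub3, the WD-repeat protein that docks Bub1 and BubR1 on kinetochores, was the exception among the 5 spindle checkpoint genes listed. It read 1664, 2277 and 2223 in proliferating progenitors, 2789, 2959 and 2762 in differentiating ones and 1404, 1806 and 1682 in neurons. The differentiating libraries were above all others, and the neuron range overlapped that of the proliferating progenitors. Its fall from differentiating progenitors was -0.81 ± 0.14 (limma adjusted p = 0.000881), and neurons against proliferating progenitors gave -0.33 ± 0.14 (limma adjusted p = 0.0644). With the replicate number as a block the second value passed (limma adjusted p = 0.00324), as it did without replicate 1 of the proliferating progenitors (-0.47, limma adjusted p = 0.00646) and with every library scaled to the same total (-0.61, limma adjusted p = 0.00229). The ratio of Bub3 to Bub1 on value + 1 was 1.09 to 1.44 in proliferating progenitors, 1.33 to 1.93 in differentiating ones and 19.8, 54.8 and 62.3 in neurons. Bub3 against Bub1b was at most 0.765 in any progenitor library and at least 6.11 in each neuron library. Both ratios had an exact two-sided permutation p of 0.1 between neurons and differentiating progenitors, again the smallest possible. They too were chosen after the values were seen, so this p adds no support. In the authors' deposited table Bub3 had a neuron to differentiating ratio of 0.57 with an adjusted p of 7.2e-05, and a neuron to proliferating ratio of 0.79 with an adjusted p of 0.12.

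**Figure D2:**
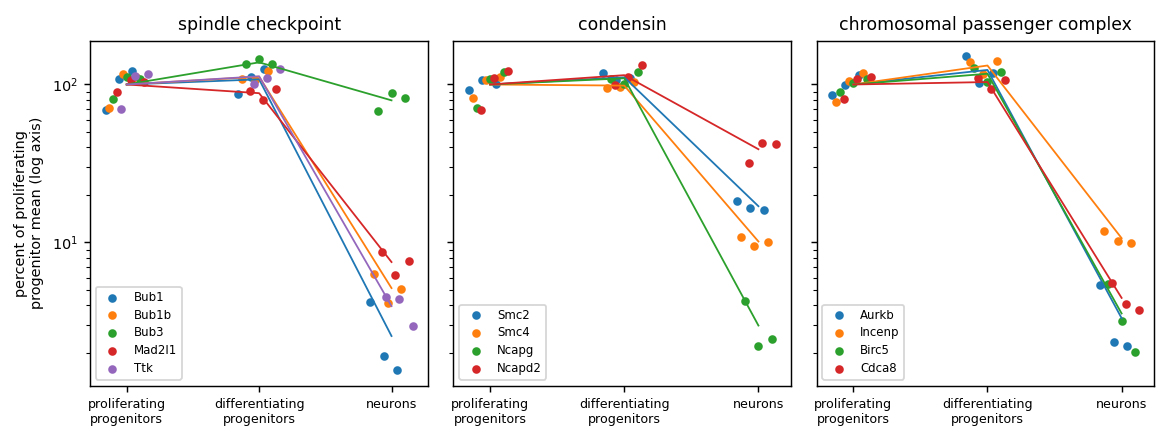
Level of each subunit in percent of its mean in proliferating progenitors (log axis), for the spindle checkpoint, condensin and the chromosomal passenger complex; points are libraries and lines join group means. Bub3 stays at 79.4% and Ncapd2 at 38.9% in neurons while Bub1 and Ncapg lie at 2.56% and 2.98%.

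The 6 kinetochore and centromere genes among the members fell within a narrow band, from -5.37 to -4.24. Ndc80, the microtubule-binding core of the outer kinetochore, had 448, 770 and 937 normalised counts in proliferating progenitors, 776, 985 and 1125 in differentiating ones and 24, 26 and 17 in neurons. Its log2 change was -5.37 ± 0.28 (limma adjusted p = 4.95e-07). Its partners Spc25 and Nuf2 changed by -5.03 ± 0.29 and -4.24 ± 0.24. Cenpa, the histone H3 variant that marks centromeres, went from 1981, 1508 and 1847 to 106, 54 and 64, a change of -4.61 ± 0.23, and was at 1584, 1806 and 1738 in proliferating progenitors. Cenpf and the motor gene Cenpe, which encode large proteins of the outer kinetochore, changed by -4.85 ± 0.31 and -4.58 ± 0.31. Kinetochore genes thus kept 3.11% to 6.09% of the proliferating progenitor mean.

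The chromosomal passenger complex places Aurora B on centromeres and later on the midzone. Its kinase gene Aurkb changed by -5.30 ± 0.31 on the log2 scale into neurons, and Birc5, which encodes survivin, by -5.11 ± 0.29. Cdca8, which encodes borealin, had 1816, 2418 and 2492 normalised counts in proliferating progenitors, 2459, 2109 and 2402 in differentiating ones and 124, 92 and 84 in neurons. That was a change of -4.54 ± 0.17 (limma adjusted p = 1.05e-07). The scaffold gene Incenp changed less, by -3.63 ± 0.15, and kept 10.7% of the proliferating progenitor mean where the other members of the complex kept 3.32% to 4.46%. The ratio of Incenp to Aurkb on value + 1 was 2.2 to 2.85 in differentiating progenitors and 5.19, 10.2 and 10.4 in neurons, without overlap. This ratio was also chosen after the values were seen. Its exact two-sided permutation p of 0.1, the smallest possible, therefore adds no support.

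Among kinases and regulators of mitotic entry, 4 of 5 genes had changes between -4.86 and -4.45. These were Cdc25c, a phosphatase that activates Cdk1, at -4.86 ± 0.20, Plk1 (Polo-like kinase) at -4.65 ± 0.29, Aurka (Aurora A, of the spindle poles) at -4.46 ± 0.20 and Nek2, a centrosome kinase, at -4.45 ± 0.19. Nek2 was one of the 3 lowest members per length, with 158 normalised counts per kilobase, and read 883, 1030 and 1019, then 1370, 891 and 1071, and 58, 52 and 39 in neurons. Cdc25b, the phosphatase that starts Cdk1 activation at the centrosome, kept more. It had 1962, 1881 and 1890 in proliferating progenitors, 2128, 1863 and 2143 in differentiating ones and 379, 392 and 411 in neurons. Its log2 change was -2.37 ± 0.08 (limma adjusted p = 8.62e-08).

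Anaphase control genes included the member with the noisiest values. Cdc20, the activator of the anaphase-promoting complex, had 1966, 2842 and 2812 normalised counts in proliferating progenitors, 3038, 2326 and 2600 in differentiating ones and 148, 123 and 110 in neurons, a log2 change of -4.38 ± 0.18 (limma adjusted p = 1.3e-07). Espl1 (separase, the protease that cuts cohesin) and Cdca3 (a ubiquitin ligase adaptor also named Tome-1) changed by -5.08 ± 0.34 and -4.75 ± 0.26. Ube2c, an E2 enzyme of the complex, changed by -4.71 ± 0.19. Ccnf, an F-box cyclin, changed by -3.47 ± 0.20. Pttg1, which encodes securin, the inhibitor of separase, had 93, 260 and 114 in proliferating progenitors, 66, 225 and 80 in differentiating ones and 14, 52 and 25 in neurons. Replicate 2 was highest in every group, and the ranges of the progenitor groups overlapped. Its fall into neurons was -1.96 ± 0.61 (limma adjusted p = 0.0219). The call was lost without replicate 2 of the differentiating progenitors (-1.42, limma adjusted p = 0.0781) or without replicate 1 (-1.53, adjusted p = 0.0691) or replicate 3 (-1.92, adjusted p = 0.0595) of the neurons, and the limma adjusted p ran from 3.46e-06 to 0.0781 over all alternatives. With 51.6 normalised counts per kilobase, Pttg1 was the lowest of the 42 per length. In the authors' deposited table it was the 1 member of 42 without a call in this comparison, at an adjusted p of 0.078.

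Spindle microtubule binding proteins and cytokinesis genes followed the bulk. Tpx2, which activates Aurora A and nucleates microtubules near chromosomes, went from 4068, 4756 and 4491 through 5492, 4606 and 4936 to 272, 164 and 151, a log2 change into neurons of -4.72 ± 0.20 (limma adjusted p = 1.56e-07). Hmmr, a spindle pole protein that was low per length (138 normalised counts per kilobase), read 714, 1027 and 1019, then 1347, 1268 and 1447, and 58, 29 and 26 in neurons. Its change was -5.22 ± 0.28. Nusap1, Tacc3 and Ckap2, which bundle or stabilise spindle microtubules, changed by -5.02 ± 0.33, -4.36 ± 0.20 and -3.26 ± 0.16. Of the cytokinesis genes, the midzone bundler Prc1, the cytokinesis regulator Ect2 and the ring scaffold Anln (anillin) changed by -5.05 ± 0.25, -4.85 ± 0.25 and -4.41 ± 0.18. Racgap1, a subunit of centralspindlin, fell less, from 5432, 4469 and 4946 to 629, 542 and 580, a change of -3.08 ± 0.10 (limma adjusted p = 5.41e-08). It had 4704, 5124 and 5254 in proliferating progenitors. The deposited gene descriptions of Racgap1 and Ube2c also name a predicted gene, and those of Nuf2 and Mad2l1 a similar gene, so reads of near copies could be counted with these 4.

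Between the progenitor groups the mitosis genes differed little in the median. The median log2 change from proliferating to differentiating progenitors was 0.20, against -0.02 over all genes. Of the 42 changes 38 were above 0, as were 7614 of the 15828 genes tested. Bub3 alone passed the test, at 0.48 ± 0.14 (limma adjusted p = 0.0332), where 13.8% of all genes were higher, 11.1% lower and 24.9% changed. Its call was lost without replicate 1 of the proliferating progenitors (0.33, adjusted p = 0.0726), without replicate 1, 2 or 3 of the differentiating ones (adjusted p = 0.0555, 0.108 and 0.0779), without replicate 3 of the neurons (adjusted p = 0.0518) and without the intensity trend (adjusted p = 0.0565), all by limma. With the replicate block 3 members passed, where 24.0% of all genes were higher: Bub3 (limma adjusted p = 0.00083), Aurka (0.53, adjusted p = 0.0155) and Incenp (0.41, adjusted p = 0.0335). In the authors' deposited table no member passed, with an adjusted p of 0.1 for Bub3, and 18.1% of the genes tested here did.

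In 8 members all differentiating libraries lay above all proliferating ones, namely Aurka, Bub3, Cenpe, Cenpf, Hmmr, Nusap1, Prc1 and Top2a. Over all genes 18.9% had this pattern, which is close to the members' share. Aurka had 1024, 1101 and 1247 normalised counts in proliferating progenitors and 1982, 1341 and 1608 in differentiating ones, and Cenpf had 6058, 6277 and 5735 against 10237, 6565 and 6697. The upper value of both came from replicate 1. Prc1 had 2493, 3172 and 3250 against 4345, 3638 and 3994, and Hmmr, with the largest change, 0.57 ± 0.28 (limma adjusted p = 0.182).

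The lean towards differentiating progenitors was smaller without replicate 1. Replicate 1 of the proliferating progenitors was the lowest of its group in 39 of 42 members, at a median of 0.74 times the mean of the other 2, and replicate 1 of the differentiating progenitors was the highest of its group in 21. With replicates 2 and 3 alone the median change was 0.04, against -0.02 over all genes, and 25 of 42 were above 0. Without replicate 1 of the proliferating progenitors alone, it was 0.09, against -0.01 over all genes, with 26 above 0. The same library had the highest red cell sum, 1.48% of its total against 0.570% and 0.671% in replicates 2 and 3, and a part of that in the lower values was not tested. In replicates 2 and 3 alone, Bub3 (0.35, limma adjusted p = 0.00738), Cenpe (0.28, adjusted p = 0.0225) and Hmmr (0.40, adjusted p = 0.0284) passed, where 19.9% of the 14897 genes then tested were higher.

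**Figure D3:**
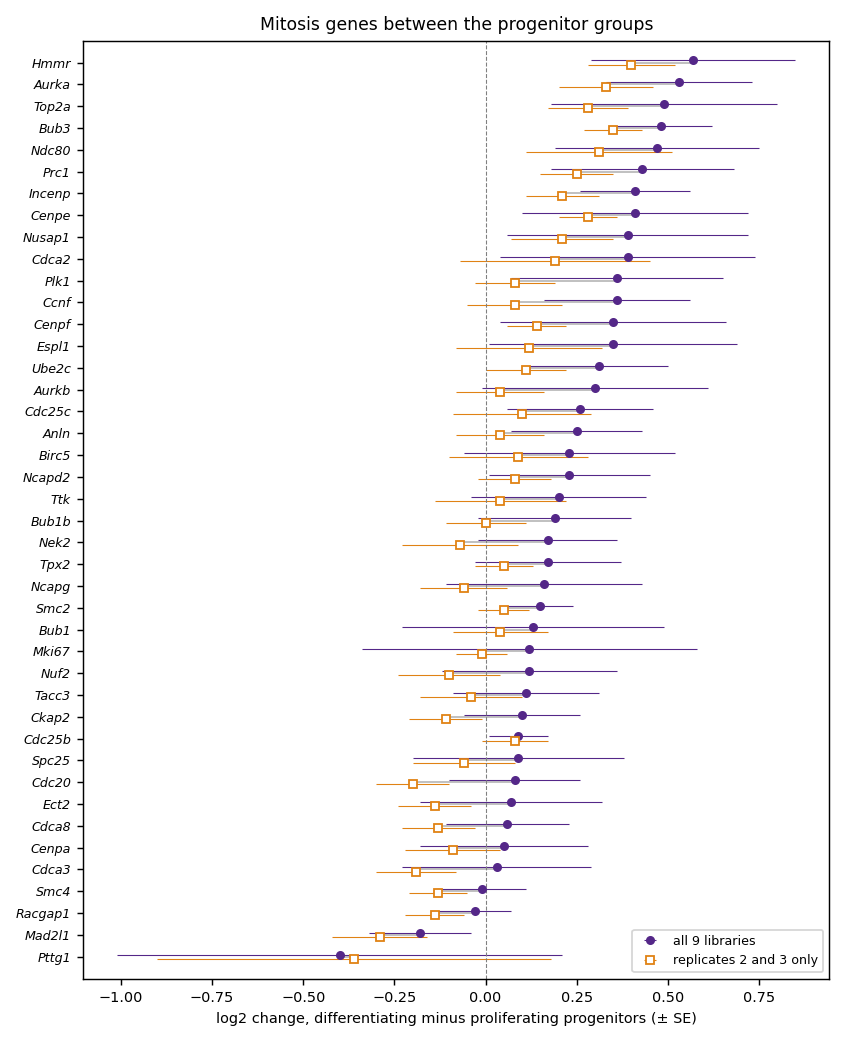
Log2 change from proliferating to differentiating progenitors for each of the 42 genes, with its standard error, from all 9 libraries (filled) and from replicates 2 and 3 only (open). The filled points have a median of 0.20 and the open ones of 0.04, and Bub3 lies above 0 in both.

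Genes of the preceding cell cycle phases were in part lower in differentiating progenitors. Of 43 listed genes of the G1/S transition and DNA replication, 13 fell and 0 rose from proliferating to differentiating progenitors by limma, with a median of -0.32, where 11.1% of all genes were lower. With the replicate block 25 fell and 1 rose, where 22.0% of all genes were lower. With replicates 2 and 3 alone 24 fell, where 17.8% were lower. Mcm2 and Mcm4 of the replicative helicase fell by 0.51 and 0.74 on the log2 scale, and Ung, a uracil glycosylase, by 1.17. The summed level of the 42 mitosis genes over that of these 43 genes was 1.08, 1.11 and 1.07 in proliferating progenitors, 1.85, 1.58 and 1.62 in differentiating ones and 0.886, 0.718 and 0.701 in neurons. The 3 ranges did not overlap, and the differentiating progenitors were the highest. Such sums weigh abundant genes most and do not describe each member. Mki67 held 31857 of the members' 163393 in replicate 1 of the differentiating progenitors. Ncapd2 held 4194 of 11730 in replicate 2 of the neurons. Into neurons all 43 fell by limma, where 26.4% of all genes were lower. Their median log2 change was -2.70, where the mitosis genes had -4.63. The 2 comparisons share the differentiating progenitor libraries.

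Other genes of mitosis, taken from a separate list, fell in the same direction with more spread. Of 65 listed symbols 61 were in the table. Into neurons 57 fell, 1 rose and 3 did not pass by limma, with a median of -3.64 and a range of -5.91 to 0.28. Some called falls were small, such as those of Ckap5 (-0.59), Mad1l1 (-0.51) and Cenpc1 (-0.48). Tubg1 (-0.17), Haus8 (-0.15) and Cenpt (0.28) were the genes without a call. Over all genes 26.4% were lower and 27.6% higher. Mybl2, a transcription factor of the complex that activates mitotic genes, changed by -3.96 ± 0.12, the kinase gene Melk by -5.21 ± 0.20, the midbody gene Cep55 by -5.03 ± 0.20 and the kinetochore gene Pmf1 by -3.41 ± 0.13. Zwint, whose protein binds Zw10 at kinetochores, was the gene that rose in this fit, from 2987, 3220 and 3354 to 3381, 3983 and 3939, by 0.24 ± 0.09 (limma adjusted p = 0.0449). This call was lost with libraries scaled to equal totals (0.02, limma adjusted p = 0.828) and with trimmed-mean scaling (0.22, adjusted p = 0.0563). The centromere gene Cenpt also rose with the replicate block (0.28, limma adjusted p = 0.00224) and with replicates 2 and 3 alone (0.27, adjusted p = 0.024), where 35.8% and 30.6% of all genes were higher. Between the progenitor groups 0 of these 61 passed by limma, where 24.9% of all genes changed, with a median of 0.06. With the replicate block 4 rose and 5 fell, where 24.0% of all genes were higher and 22.0% lower. With replicates 2 and 3 alone 2 rose and 5 fell, where 19.9% were higher and 17.8% lower. With equal totals 2 fell, where 14.3% of all genes were lower, and the median was -0.01.

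Complexes that act in mitosis and elsewhere had smaller median changes. The anaphase-promoting complex also acts in cells outside the cycle. Its 14 listed genes were subunits, an activator and the E2 enzyme gene Ube2s. Of the 14, 2 fell into neurons, Cdc27 by 0.30 and Cdc26 by 0.28, and the median was -0.23. Over all genes 26.4% were lower. With the replicate block 10 fell and 3 rose, where 35.5% of all genes were lower and 35.8% higher, and with equal totals 8 fell, where 35.5% were lower. Of 9 genes of cohesin, the ring that holds sister chromatids and folds interphase DNA, 8 fell with a median of -0.62. The ninth, Smc3, passed with the replicate block (-0.38, limma adjusted p = 8.1e-05), with replicates 2 and 3 alone and with equal totals. Rad21 fell most among them, by 1.17 on the log2 scale. Nipbl, the cohesin loader, rose from proliferating to differentiating progenitors by 0.32 ± 0.10 (limma adjusted p = 0.0433), and by 0.24 with equal totals, where the call was lost (limma adjusted p = 0.0647). With the replicate block the cohesin gene Stag2 fell between the progenitor groups (-0.19, limma adjusted p = 0.0137). By these medians the members Bub3 (-0.81), Ncapd2 (-1.56), Pttg1 (-1.96) and Cdc25b (-2.37) lay nearer to cohesin than to the median of the 42.

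**Figure D4:**
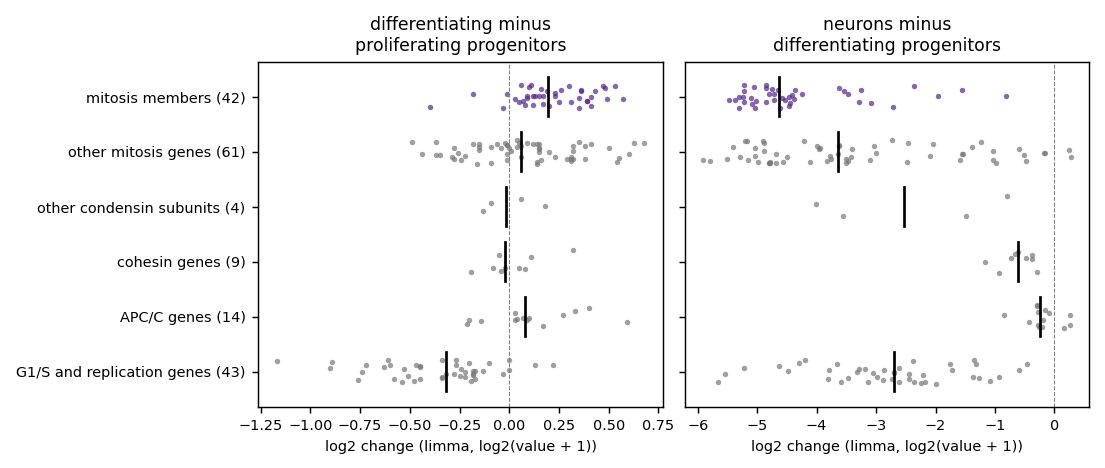
Log2 changes of the mitosis members and of 5 other gene lists between the progenitor groups and into neurons; each point is a gene and the black bar is the median. The members centre on 0.20 and -4.63, the G1/S and replication genes on -0.32 and -2.70, and into neurons the cohesin and anaphase-promoting complex genes centre on -0.62 and -0.23.

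The promoters of the members share 2 short elements that the choice of genes did not use. Many mitotic genes are known to be repressed outside G2 and mitosis through a cell cycle genes homology region (CHR), bound by the DREAM and MuvB complexes, and activated through CCAAT boxes, bound by NF-Y. RefSeq promoters on build GRCm38.p6, from 250 bases before to 50 after each start, were matched for 36 of the 42 members, with 39 starts in all. No promoter was matched for Aurkb, Cdc25c, Cdca2, Incenp, Smc4 and Tpx2. The windows were searched on both strands for TTTGAA (CHR) and CCAAT, whose matches overlapped in 1 pair among the members. A CHR match was found in 29 of 39 member promoters (74.4%), against 17.9% of all 32851 promoters of the same length. CCAAT was in 31 (79.5%) against 37.4%, both were in 27 (69.2%) against 6.95%, and 51.3% had at least 2 CCAAT matches against 11.7%. Of the other mitosis genes 37.3% of promoters held a CHR match, of the G1/S genes 10.0%, and of the anaphase-promoting complex 6.67%. CCAAT was in 62.7%, 57.5% and 46.7% of these promoters in the same order, and at least 2 CCAAT matches were in 29.4%, 32.5% and 13.3%. A match is a description of the letters, not evidence of binding. Other spellings of either element were not searched, so a promoter without a match lacks only these letters.

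Positions were counted at 1 start per gene, the one farthest upstream. The 32 CHR matches of 36 members had a median position of -1.0 from the start, and 24 (75.0%) lay at -50 or later, as did 24.8% of the 5645 CHR matches in the promoters of all 27025 genes, whose median was -125.0. The 63 CCAAT matches had a median of -71.0, against -91.0 over all genes, and 47.6% of them lay from -150 to -51, against 42.7%. The promoters of 6 members are shown, 1 start each, because they span the range of the neuron change: Top2a and Cdc20 fell with the bulk, Bub1 fell most, and Bub3, Ncapd2 and Pttg1 fell least. Capitals mark CHR (TTTGAA or TTCAAA) and CCAAT (or ATTGG) matches.
Top2a (chr11:99024140-99024439, minus strand): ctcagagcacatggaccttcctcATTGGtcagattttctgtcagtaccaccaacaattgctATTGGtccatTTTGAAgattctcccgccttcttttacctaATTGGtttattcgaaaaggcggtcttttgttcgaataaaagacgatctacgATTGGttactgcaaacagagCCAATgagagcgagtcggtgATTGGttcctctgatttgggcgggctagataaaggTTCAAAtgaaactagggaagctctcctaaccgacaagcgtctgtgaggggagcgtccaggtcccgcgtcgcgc
Cdc20 (chr4:118437294-118437593, minus strand): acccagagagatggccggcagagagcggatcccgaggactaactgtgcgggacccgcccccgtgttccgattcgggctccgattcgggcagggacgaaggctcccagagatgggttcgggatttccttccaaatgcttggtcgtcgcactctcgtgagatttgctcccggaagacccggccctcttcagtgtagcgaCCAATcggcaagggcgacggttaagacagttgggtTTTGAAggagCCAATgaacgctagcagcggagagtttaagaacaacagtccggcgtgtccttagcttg
Bub1 (chr2:127831810-127832109, minus strand): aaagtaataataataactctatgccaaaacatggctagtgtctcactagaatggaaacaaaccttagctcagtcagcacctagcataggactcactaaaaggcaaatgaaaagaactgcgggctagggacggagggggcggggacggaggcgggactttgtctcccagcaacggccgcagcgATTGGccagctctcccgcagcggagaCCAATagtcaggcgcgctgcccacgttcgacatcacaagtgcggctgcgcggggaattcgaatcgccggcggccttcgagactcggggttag
Bub3 (chr7:131560120-131560419, plus strand): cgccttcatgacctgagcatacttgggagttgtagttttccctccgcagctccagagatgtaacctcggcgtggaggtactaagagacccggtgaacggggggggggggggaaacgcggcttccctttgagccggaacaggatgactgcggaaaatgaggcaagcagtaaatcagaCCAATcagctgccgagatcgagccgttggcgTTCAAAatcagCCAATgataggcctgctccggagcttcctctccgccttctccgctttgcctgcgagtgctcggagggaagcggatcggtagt
Ncapd2 (chr6:125191537-125191836, minus strand): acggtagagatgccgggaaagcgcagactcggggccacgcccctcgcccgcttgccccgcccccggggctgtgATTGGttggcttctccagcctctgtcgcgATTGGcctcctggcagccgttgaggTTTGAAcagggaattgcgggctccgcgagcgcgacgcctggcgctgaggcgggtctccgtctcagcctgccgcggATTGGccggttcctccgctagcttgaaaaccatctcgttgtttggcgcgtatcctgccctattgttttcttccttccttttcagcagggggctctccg
Pttg1 (chr11:43425932-43426231, minus strand): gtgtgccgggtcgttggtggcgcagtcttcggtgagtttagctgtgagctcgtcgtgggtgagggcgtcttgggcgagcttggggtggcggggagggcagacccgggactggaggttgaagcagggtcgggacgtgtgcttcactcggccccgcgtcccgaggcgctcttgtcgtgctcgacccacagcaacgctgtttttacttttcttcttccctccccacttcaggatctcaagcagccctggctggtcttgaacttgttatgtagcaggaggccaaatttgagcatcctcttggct
Top2a held 6 CCAAT and 2 CHR matches, and Cdc20 held 2 and 1. Bub1 had 2 CCAAT matches and no CHR match in this window. Bub3 and Ncapd2, which fell least together with Pttg1, had 1 CHR match each, with 2 and 3 CCAAT matches, and Pttg1 had neither. The median change into neurons was -4.68 over the 26 members with a CHR match and -4.40 over the 10 without, with ranges of -5.37 to -0.81 and -5.48 to -1.96, which overlap.

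**Figure D5:**
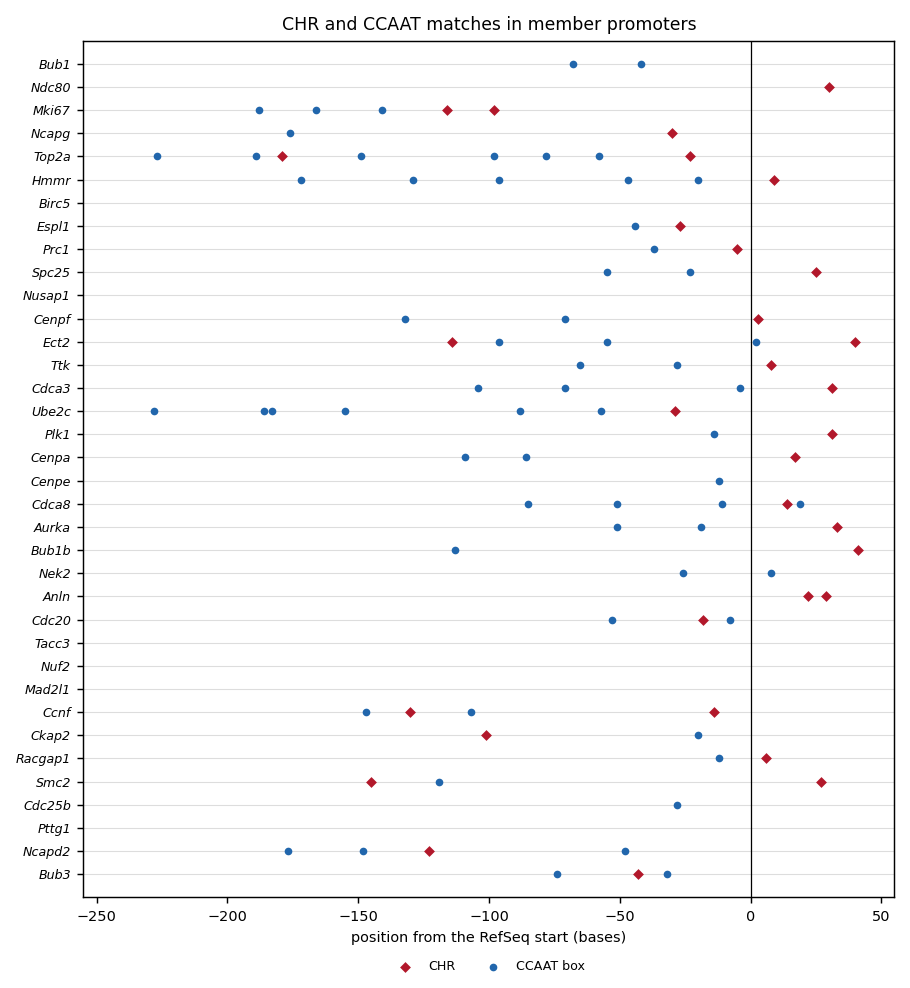
Position of CHR (diamonds) and CCAAT (circles) matches from the RefSeq start in 36 member promoters, at the start farthest upstream of each gene, ordered from the deepest fall into neurons (top) to the smallest (bottom). Of the 32 CHR matches plotted 24 lie at -50 or later, and CHR matches are present in rows at the top and the bottom.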

How the data were processed

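Poly-A RNA of 9 sorted pools was sequenced strand-specifically, per the labels' protocols. The submitters' processing notes list build mm9 and the tools DESeq 1.8.1, bedtools 2.11, BWA and CASAVA 1.8.0, without their roles. For the strand setting of the counting, the sources used here give nothing. As deposited, the table holds a score per gene and library: normalised read counts rounded to whole numbers, on Ensembl genes per the file headers. The authors also deposited group ratios as folds and adjusted p-values. Another deposited column gives each gene's length. Raw counts were not used, so the depth behind a value is unknown and no count model was fitted. The design notes foresaw this choice by unit. The deposited tables of gene pairs held the same values and were not used.

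Group means of log2(value + 1) were compared by limma 3.58.1 (R 4.3.3) with the prior spread following intensity, in 1 fit over 9 libraries that leaves 6 residual degrees of freedom; fold changes are on that scale, which understates changes of low genes. The filter kept 15828 genes whose value reached 10 in 3 or more libraries, with Benjamini-Hochberg adjustment over all of them at 0.05. Ratios of 2 genes used exact permutation tests in scipy 1.17.1. The fit was tested on simulated data.

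Libraries of equal replicate number deviated together: after removal of group means, r across genes was 0.507 to 0.767 in the 9 pairs of equal number and -0.64 to 0.428 in the 18 others. The numbers come from the titles. A fit with the number as a block is given where it changes a call of a member or a count of another list given in the text. Other alternatives were 2 scalings (factors from trimmed means of M values, equal totals), no filter, pseudocounts of 10 and 0.5, no trend, only the groups compared, replicates 2 and 3 only, and each library left out.

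All members may be named. Values of every library are given for members called between the progenitor groups, the 3 with the largest and the 3 with the smallest change into neurons, the 3 highest and lowest per length, and 1 per role; others were chosen after their values were seen. From other lists up to 4 genes with the smallest adjusted p per comparison, and those called against their list, are named. A few further genes of these lists were named after their values were seen, to show the spread. The members, lists and ratios were chosen with earlier results of these data known. Lists of other cell types (intermediate progenitors, neurons, microglia, endothelial and mural cells, meninges) were also measured. From proliferating to differentiating progenitors 13 of 13 intermediate progenitor genes and 11 of 13 neuron genes rose by limma. Over all genes 13.8% were higher. Of the 16 radial glia markers 11 fell, where 11.1% of all genes were lower. Summed values in proliferating progenitors, differentiating progenitors and neurons were 198 to 272, 100 to 144 and 31 to 40 for microglia, 751 to 1597, 405 to 445 and 105 to 150 for endothelial and mural cells, and 622 to 3743, 223 to 394 and 167 to 201 for meninges.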

Additional observations from a re-analysis of the deposited data

How the results depend on the processing

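The fall of the members into neurons held: of 756 values (42 members under 18 alternatives) 753 kept direction and side of the threshold, 3 (all Pttg1) lost the call and 0 reversed, and the members called ranged from 41 to 42 when 1 library was left out. Between the progenitor groups the count of 1 member moved with most settings. It was 0 without the intensity trend, 3 with only the groups compared, 3 with the replicate block, 3 with replicates 2 and 3 alone, and 0 to 5 when 1 library was left out. It was 0 without replicate 1 of the proliferating progenitors, each of the differentiating ones or replicate 3 of the neurons, and 5 without replicate 1 of the neurons; the cause was not tested. Over all genes the count in that comparison was 7282 with the replicate block, against 3944 of 15828 in the main fit. It was 3742 without the trend, 3321 with only the groups compared and 5610 of 14897 with replicates 2 and 3 alone. When 1 library was left out, the count over all genes ran from 2642 to 4064. The block changed no other member call than those given with the results. Scaling to equal totals moved the median of all genes to -0.09, -0.23 and -0.31, from -0.02, -0.01 and -0.02, for differentiating against proliferating progenitors, neurons against differentiating and neurons against proliferating. It turned 2186 higher and 1758 lower genes into 1880 and 2254, then 4368 and 4183 into 3353 and 5589, and 5099 and 4924 into 3869 and 6605. Under it the members had medians of 0.13, -4.84 and -4.73, and 34 of 42 were above 0 between the progenitor groups. The deposited values carry no raw read totals, so what depth limits is unknown.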
